A study of Drosophila melanogaster with 3 samples.

Results

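The glutathione S-transferases (Gst), cytochrome P450s (Cyp) and UDP-glycosyltransferases (Ugt) of the Drosophila melanogaster larva were followed in single-cell libraries of its peripheral chemosensory organs. Members were chosen by symbol: Gst with a class letter and a digit, Cyp with digits, a letter and digits, and Ugt with digits. By this rule 94 of the 10457 symbols listed over the 3 libraries were members, 49 of them Cyp, 35 Gst and 10 Ugt. The rule left out 4 further P450 symbols with 2 letters (Cyp4aa1, Cyp4ac1, Cyp4ac3 and Cyp4ae1), each with at most 1 count in a library, the symbol Ugt with at most 73 counts, and Cyp1, a cyclophilin and not a P450.

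The libraries form 1 group of 3 replicates, with the same protocol text for each: fluorescently labelled organs of 3rd-instar larvae, picked by hand and dissociated into cells. Cells were paired with barcoded beads by DisCo, a droplet method built for small numbers of cells. The genotype, the driver of the fluorescent label, the number of larvae and whether the replicates came from separate animals are not given in the sources used here. Spreads and p-values between libraries therefore measure the spread between these libraries, which may be technical. The library titles end in a different suffix each, which the labels do not explain, so any difference in preparation that they mark cannot be told apart from the library. No second condition was measured, so the comparisons are between barcodes of the same library.

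P450s insert oxygen into small lipophilic molecules, using electrons from the reductase Cpr or, in mitochondria, from other carriers. Gst enzymes join glutathione to reactive groups, and Ugt enzymes join a sugar, which makes the product easier to export. In insect sensilla such enzymes are studied as odorant-degrading enzymes, which clear stimulus molecules from the lymph around the sensory dendrites. The same lymph holds odorant-binding proteins (Obp), which support cells secrete. Genes of these families also serve hormone and lipid metabolism and are induced by foreign compounds, so presence of a transcript does not name its substrate.

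Each library was described from barcodes with at least 200 genes, 61, 214 and 231 in replicates 1, 2 and 3, with 497492, 654062 and 345621 counts. The deepest barcode of each held 22.97%, 24.06% and 34.32% of these counts. The 3 deepest and the barcodes within 4 edits of them held 90.6%, 48.2% and 64.5%, and whether such near barcodes are separate cells cannot be told apart here. Pairs of libraries shared at most 1 barcode, and none among those kept. Replicate 1 stood apart: neuron markers summed to 109 counts scaled to 1000000 (CPM), against 6148 and 12343 CPM in replicates 2 and 3, and epidermis markers to 2255 CPM, against 7.64 and 20.3 CPM. Obp genes took 5.25%, 1.95% and 2.76% of counts, and glia markers 762, 3741 and 477 CPM. Of the 10 neuron markers at least 9 were counted in each library, while of the 9 glia markers repo, the regulator that defines most glia, was at 0 in replicate 1 and alrm, of astrocytes, in all 3. Fat body, oenocyte and gut and tubule markers, from tissues known for these enzymes, had at most 12 counts a list in any library. CPM are not per gene length, so levels are compared between libraries and barcodes and not between genes.

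Gst transcripts made up nearly all the signal of the 3 families. Members had 33994 counts in kept barcodes, of which 32160 were Gst, 1448 Cyp and 386 Ugt. All 35 Gst, 46 of 49 Cyp and all 10 Ugt were counted at least once, while Cyp308a1, Cyp4d21 and Cyp6d2 were listed without a count there. Many were near the limit of detection: 39 members had at most 5 counts in all, 31 of them Cyp, and 27 had at least 100, of which 20 were Gst. Only 22 were counted in all 3 libraries, 15 of them Gst, 5 Cyp and 2 Ugt. Summed Gst was 7333, 37258 and 11987 CPM in replicates 1, 2 and 3 (18859 ± 16103 CPM, SD, n = 3). Summed Cyp was 410, 1668 and 443 CPM (840 ± 717 CPM), and summed Ugt 225, 324 and 179 CPM (243 ± 74.0 CPM). Replicate 2 was highest for each family, and the Gst spread between libraries was about as large as the mean. Without replicate 2 the Gst mean was 9660 CPM and the Cyp mean 426 CPM.

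**Figure D1:**
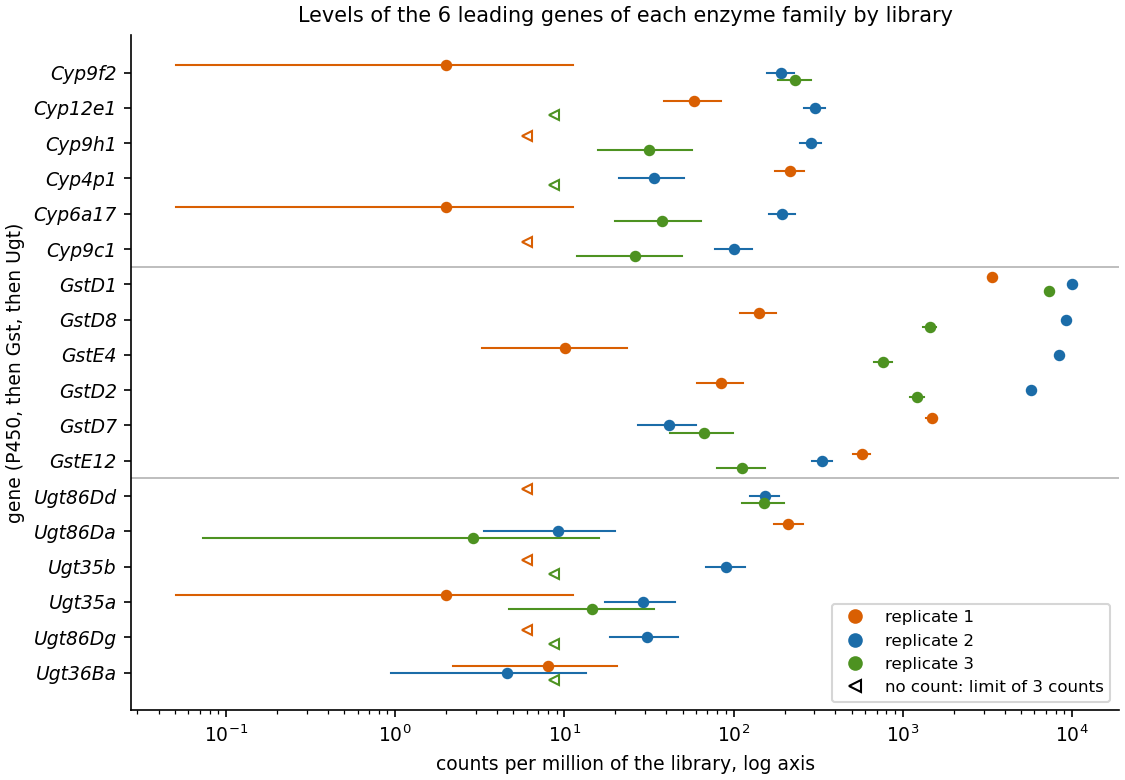
Levels of the 6 genes with the highest mean in each family, in CPM of the kept barcodes on a log axis, for replicates 1 to 3. Bars are exact 95% intervals for counting error only, and open triangles stand at 3 counts where none was counted. GstD1 lay within 2.99-fold across libraries, whereas GstE4 spanned 10.1 to 8326 CPM.

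Among P450s, which carry out the oxidation step, no gene was high in all 3 libraries. Cyp9f2 had 2.01, 190 and 231 CPM in replicates 1, 2 and 3, from 1, 124 and 80 counts. Cyp12e1, of the mitochondrial Cyp12 group, had 58.3 and 303 CPM in replicates 1 and 2 and was not listed in replicate 3. Cyp4p1 had 215 and 33.6 CPM in replicates 1 and 2 and was not listed in replicate 3. Cyp9f2 was thus shared by replicates 2 and 3, while Cyp4p1 had the most P450 counts in replicate 1. Cyp6a17, known in adult flies for its part in temperature preference, had 2.01, 194 and 37.6 CPM. Cyp9h1 and Cyp9c1 were not listed in replicate 1 and had 286 and 101 CPM in replicate 2, against 31.8 and 26.0 CPM in replicate 3. All 3 of these were highest in replicate 2, beyond the exact counting intervals of the other libraries.

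P450s with well-known roles elsewhere had few counts in most libraries. Cyp4g1, which makes cuticular hydrocarbons in oenocytes, had 1 count each in replicates 2 and 3. Its relative Cyp4g15, described in the nervous system, had 60 counts in replicate 2 (91.7 CPM) and 1 in replicate 3. Cyp18a1, which inactivates moulting hormone, and Cyp49a1 had 2 counts each, all in replicate 1. Cyp6a2 and Cyp6g1, known from insecticide resistance, had 4 and 1 counts, also all in replicate 1. Cyp12a4 had 53 counts, all in replicate 2 (81.0 CPM). For a gene with no count the limit of 3 counts is 6.03, 4.59 and 8.68 CPM in replicates 1, 2 and 3.

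Of the Gst counts, 77.2%, 69.8% and 84.2% fell on the delta class (GstD) and 16.7%, 27.5% and 10.1% on the epsilon class (GstE), the insect-specific classes. By RefSeq gene order, GstD1 to GstD10 lie as neighbours on chromosome arm 3R and GstE1 to GstE10 on 2R. Such copies are alike in sequence, and the counting rule for reads that match several is not given in the sources used here, so the split between them is uncertain. GstD1, known for detoxifying DDT, had 3351, 10010 and 7291 CPM and was counted in 55 of 61, 210 of 214 and 227 of 231 barcodes. No other member was counted in so many barcodes of every library.

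Other delta and epsilon genes differed far more between libraries. GstD8 had 141, 9238 and 1447 CPM in replicates 1, 2 and 3, a 65.7-fold range. GstD2 had 84.4, 5752 and 1212 CPM, a 68.1-fold range. GstE4 had 10.1, 8326 and 764 CPM, from 5, 5446 and 264 counts. All 3 were lowest in replicate 1 and highest in replicate 2. GstD7 ran the other way, with 1483 CPM in replicate 1, against 41.3 and 66.5 CPM in replicates 2 and 3. GstD10 had the same order, with 213, 1.53 and 60.8 CPM. GstE1 was also highest in replicate 1, with 273 CPM, against 6.12 and 2.89 CPM from 4 and 1 counts. Together GstD1, GstD2, GstD8 and GstE4 made up 48.9%, 89.4% and 89.4% of Gst counts.

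The differences in GstD1, GstE4 and GstD7 were also seen at equal counts per barcode. When each barcode was thinned to 395 counts, leaving out 4, 61 and 60 shallower ones, GstD1 was found in 70.2%, 98.0% and 98.8% of the 57, 153 and 171 barcodes left. GstE4 was found in 1.75%, 92.8% and 33.9%, and in 1.64%, 96.7% and 42.9% before thinning. GstD7 was found in 17.5%, 1.31% and 3.51%, and in 60.7%, 5.61% and 6.06% before. No class of barcodes known to lack these genes was defined, so the level that free RNA gives was not set. A Gst count was found in all thinned barcodes of replicates 2 and 3 and in 91.2% of replicate 1. Thinning does not separate near barcodes. In replicate 1, 30 of the 61 kept barcodes lay within 4 edits of the 3 deepest, so its percentages may stand for fewer cells than barcodes.

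Gst genes outside the delta and epsilon classes had lower totals. GstS1, of the sigma class, had 312, 59.6 and 246 CPM. GstO3 and GstO2, of the omega class, had 307 and 298 CPM in replicate 2, against at most 104 and 34.7 CPM in the other libraries. GstZ2, of the zeta class that acts in tyrosine breakdown, was not listed in replicate 1 and had 142 and 223 CPM in replicates 2 and 3. Replicate 2 was thus highest for the omega genes but not for GstS1 or GstZ2. GstE12 had 573, 333 and 113 CPM, and GstE6 had 103, 543 and 295 CPM.

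The files give Ugt genes by older symbols, and all 10 were matched to RefSeq through synonyms. Ugt86Dd, linked in flies to nicotine resistance of larvae, was not listed in replicate 1 and had 153 and 150 CPM in replicates 2 and 3. Ugt86Da had 211 CPM in replicate 1, against 9.17 and 2.89 CPM in replicates 2 and 3. These 2 genes, both on 3R, thus took opposite places between replicate 1 and the others. Ugt35b, described in the antenna, had 90.2 CPM in replicate 2 and was not listed in the other libraries. Ugt35a had 1, 19 and 5 counts, Ugt36Ba 4, 3 and 0, and Ugt86Dg 20, all in replicate 2.

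The partner genes of the pathway, a list of 28 symbols of which 25 were listed, summed to 2770, 6339 and 4326 CPM. The P450 reductase Cpr had only 1, 25 and 11 counts, while Cyt-b5, which can also donate electrons to P450s, had 348, 583 and 440 CPM. Of the regulators of stress-induced Gst genes, cnc had 14, 64 and 8 counts and its partner maf-S 410, 531 and 78.1 CPM, while Keap1, which restrains cnc, had 1 count, in replicate 3. Gclm, a subunit of the enzyme that makes the precursor of glutathione, had no count in replicate 1 and 88.7 and 547 CPM in replicates 2 and 3. Mgstl, a membrane-bound Gst-like enzyme outside the rule, had 215, 177 and 408 CPM.

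The barcodes behind these sums were not alike. In replicate 1, 5 of the 16 deepest barcodes, the second-deepest and those within 4 edits of it, held 13.1 to 17.5% Obp counts. Another 8, the deepest and those within 4 edits of it, held at most 1.04%. The 5 Obp-high barcodes had 12087 to 14589 Gst CPM, against 3573 to 4874 CPM in the 8 Obp-low ones. The other 3 of the 16 were at 1.07 to 3.86% Obp, and 1 of them, at 1.39% Obp, had 12782 Gst CPM, so a high Gst level was also seen at low Obp. Summed over each set, GstD7 had 4392 CPM in the Obp-high barcodes, against 353 CPM in the Obp-low ones. GstE1 had 899 against 51.1 CPM, GstD10 662 against 20.4 CPM and Cyp4p1 623 against 35.8 CPM. Ugt86Da lay the other way, with 102 against 337 CPM. The Obp-high barcodes also had 3782 to 7268 CPM of epidermis markers, against 479 to 1687 CPM, and the part of this in the enzyme levels was not tested. Since barcodes near each other may not be separate cells, the sets may stand for as few as 1 cell each, and no test was made between them.

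**Figure D2:**
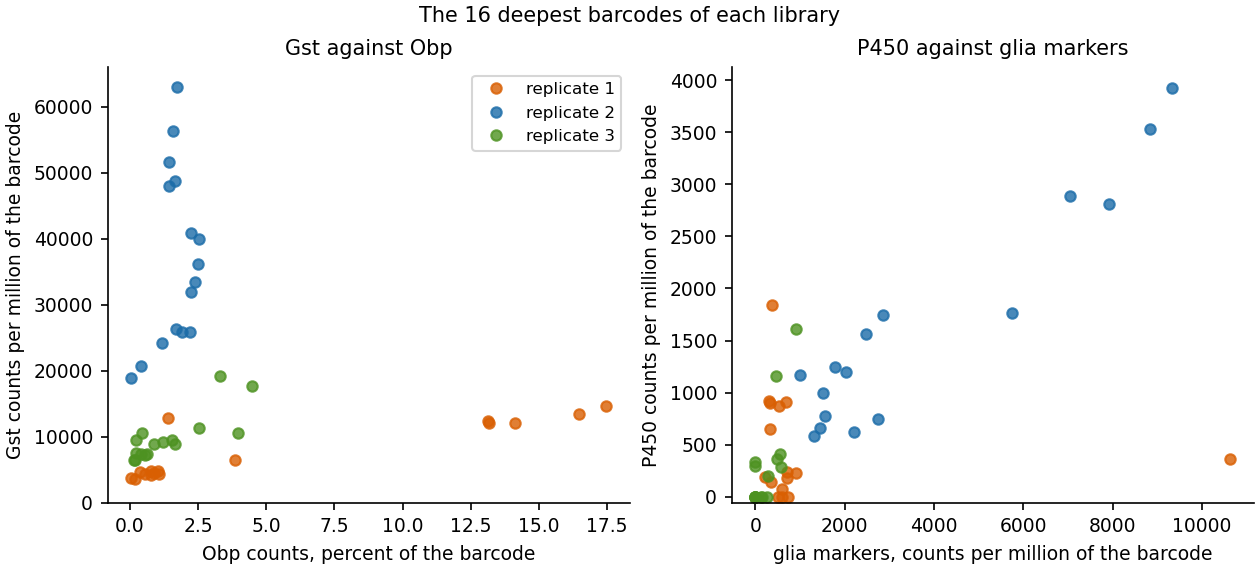
The 16 deepest barcodes of each library, with Gst CPM against the Obp percent of the barcode on the left, and P450 CPM against the summed CPM of glia markers on the right. In replicate 1 the barcodes at 13.1 to 17.5% Obp lay at 12087 to 14589 Gst CPM, as did a barcode at 1.39% Obp with 12782 Gst CPM, while in replicate 2 the P450 level was highest, at 2812 to 3930 CPM, in 4 barcodes with 7040 to 9322 CPM of glia markers.

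In replicate 2 the P450 level was higher in deep barcodes with more glia markers, and highest in those with the least Obp. In 5 of its 16 deepest barcodes glia markers summed to more than neuron markers. These had 1764 to 3930 P450 CPM (median 2885), against 584 to 1748 CPM (median 1000) in the other 11. Their glia markers were at 5757 to 9322 CPM, against 1002 to 2852 CPM, and neuron markers at 3436 to 5113 CPM, against 4682 to 10659 CPM. Their Gst level was 18918 to 36216 CPM (median 24247), against 25856 to 62987 CPM (median 40821), so Gst and P450 did not share an order. GstE6 was at 186 to 1621 CPM (median 1278), against 0 to 520 CPM (median 284). Obp was at 0.055 to 2.49% of counts, against 1.42 to 2.53%. The barcodes at 3930 and 3536 P450 CPM had 0.055% and 0.398% Obp, the lowest of the 16. This division was chosen after the values were seen and has no test, and 2 of the 5 barcodes lie within 3 edits of the deepest. The deepest barcode itself held 84 of 198 counts of Cyp12e1, 93 of 187 of Cyp9h1, 58 of 127 of Cyp6a17, 25 of 60 of Cyp4g15 and 50 of 100 of Ugt86Dd. In replicate 1 the barcode with the most glia markers, 10632 CPM and 7 edits from the nearest of the 3 deepest, had 358 P450 CPM, but GstE6 was at 1314 CPM and GstE12 at 3106 CPM there. The highest P450 level among its 16 deepest, 1839 CPM from 20 counts, was at 368 CPM of glia markers and 3.86% Obp. Replicate 3 had its highest, 1608 and 1160 CPM from 7 and 25 counts, at 3.95% and 3.30% Obp. Its barcode at 4.49% Obp had 286 P450 CPM, from 1 count.

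The make-up of the Gst signal also differed between barcodes of replicate 2. GstE4 was 38.5%, 38.5% and 37.3% of the counts of the 4 leading genes in the barcodes ranked 3, 4 and 5 by depth. In the barcode of rank 2 it was 9.31%, with GstD8 at 39.2%. In that of rank 9 it was 1.17%, from 2 of 171 counts, with GstD1 at 72.5%. By depth class the shares lay closer together: GstE4 was 26.8%, 30.1% and 24.4% in barcodes with 200 to under 500, 500 to under 1000 and at least 1000 genes. In replicate 1, GstD1 was at least 95.1% of the 4 genes in each of the 10 deepest barcodes, and in replicate 3 between 52.4% and 89.3%.

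**Figure D3:**
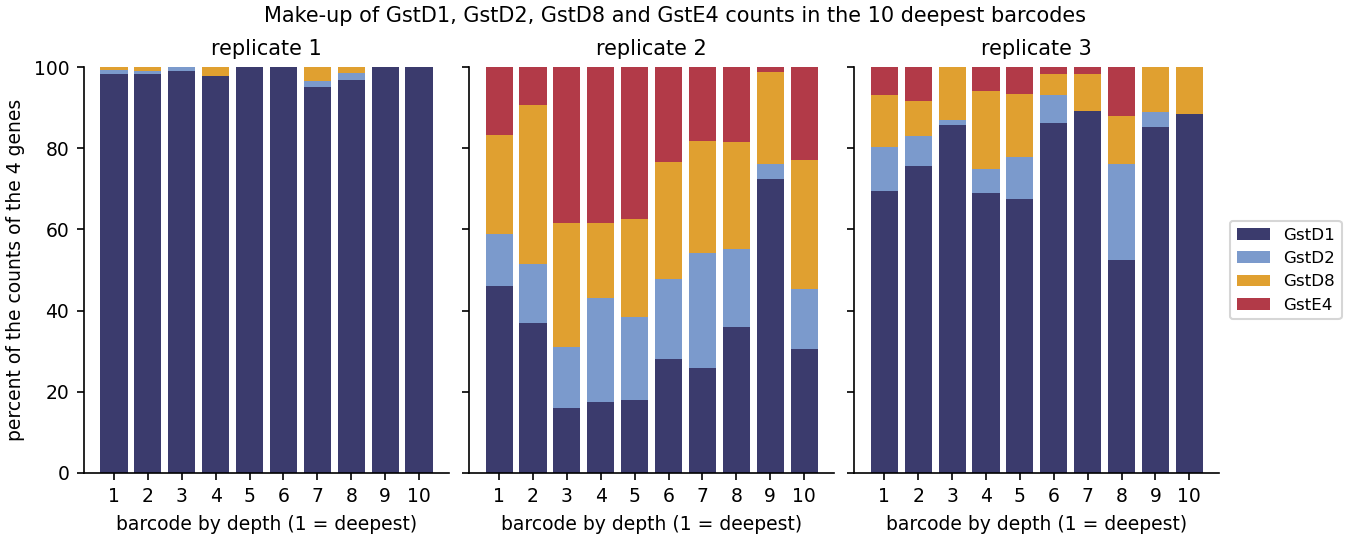
Percent of the summed counts of GstD1, GstD2, GstD8 and GstE4 that each gene took in the 10 deepest barcodes of each library, with barcodes ordered by depth. GstD1 filled nearly the whole bar in replicate 1, while GstE4 ranged from 1.17% to 38.5% in replicate 2.

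Some genes were gathered in a few barcodes more than those barcodes' size would give. A gene and barcode pair was called gathered where the lower bound of the exact 95% interval of the gene's share in the barcode was over 2 times the share that the barcode took of the whole library. Barcodes of at least 1000 genes entered, and genes that had 20 counts or more in that library. Of 1703 member pairs 38 were gathered (2.23%), against 1.75% of all 162806 pairs, so members were close to the background. They covered 26 genes and 16 barcodes, and 31 of the pairs were Gst, 5 Cyp and 2 Ugt. By library they were 17 of 432 pairs in replicate 1 (3.94%, against 2.2% of all pairs), 19 of 1131 in replicate 2 (1.68%, against 1.61%) and 2 of 140 in replicate 3 (1.43%, against 1.19%). Without replicate 1 the count was 21 pairs (1.65%, against 1.55% of all pairs), and without replicate 2 it was 19 (3.32%, against 1.96%).

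In replicate 1, the second-deepest barcode, which held 14.3% of counts and is the Obp-high one, gathered 6 members. It held 353 of 738 GstD7 counts (47.8%, interval 44.2 to 51.5%), 54 of 106 GstD10 counts, 60 of 136 GstE1 counts and 50 of 107 Cyp4p1 counts, with 13 of 27 for GstD4 and 28 of 65 for GstE7. The third deepest, with 9.60% of counts, held 18 of 27 GstE13 counts. The barcode high in glia markers, with 1.68% of counts, gathered GstD2 (19 of 42), GstE2 (13 of 28), GstE6 (11 of 51) and GstE12 (26 of 285). GstD8 was gathered in a barcode of its own, which held 29 of 70 counts and 3.86% Obp. The remaining 5 pairs lay in barcodes within 4 edits of the second deepest: GstE7 at rank 7, GstD7 and GstE1 at rank 8, and GstD4 and GstE1 at rank 11. GstD7 and its neighbour GstD8 were thus gathered in different barcodes, while GstD4, GstD7 and GstD10 shared the second deepest.

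In replicate 2, GstE4 was gathered in the barcodes ranked 3 and 4 by depth, with 1100 and 802 of 5446 counts. That of rank 4 also gathered GstD2 (536 of 3762), GstE3 (79 of 433), GstE9 (13 of 33), GstO1 (14 of 30) and GstD6 (7 of 21). GstE8 was gathered at ranks 3 and 5, and GstE5 at rank 3 with 13 of 22 counts. Ugt86Dg was the only member gathered in the deepest barcode, which held 15 of 20 counts. That barcode held 24.06% of all counts, so the rule asked a larger share of a gene there than in shallower barcodes. Cyp9h1, with 93 of 187 counts there, and Ugt86Dd, with 50 of 100, did not pass. Cyp317a1, Cyp9f2 and Ugt35b were gathered in the barcode of rank 8, 1 of the 5 with more glia than neuron markers, with 7 of 59, 13 of 124 and 9 of 59 counts. The rest were GstD9 (37 of 125 at rank 5 and 4 of 125 at rank 30), GstD6 (7 of 21 at rank 5), Cyp9c1 (14 of 66 at rank 6) and GstS1 (6 of 39 at rank 10). In replicate 3, Cyp9f2 (24 of 80) and GstE6 (29 of 102) were gathered in the second deepest barcode.

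Across depth, Gst and Obp behaved differently in replicate 2. Gst was 33264, 34637, 37859 and 37579 CPM in barcodes with under 200, 200 to under 500, 500 to under 1000 and at least 1000 genes. Obp over the same classes was 40448, 36578, 29027 and 16397 CPM. In replicate 3 Gst was 14909, 14944, 12432 and 10355 CPM, and Obp 48129, 49002, 27738 and 16521 CPM. Shallow barcodes were thus richer in Obp in replicates 2 and 3, and richer in Gst in replicate 3. Replicate 1 had no such order, with 6365, 11159, 4517 and 7380 Gst CPM.

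**Figure D4:**
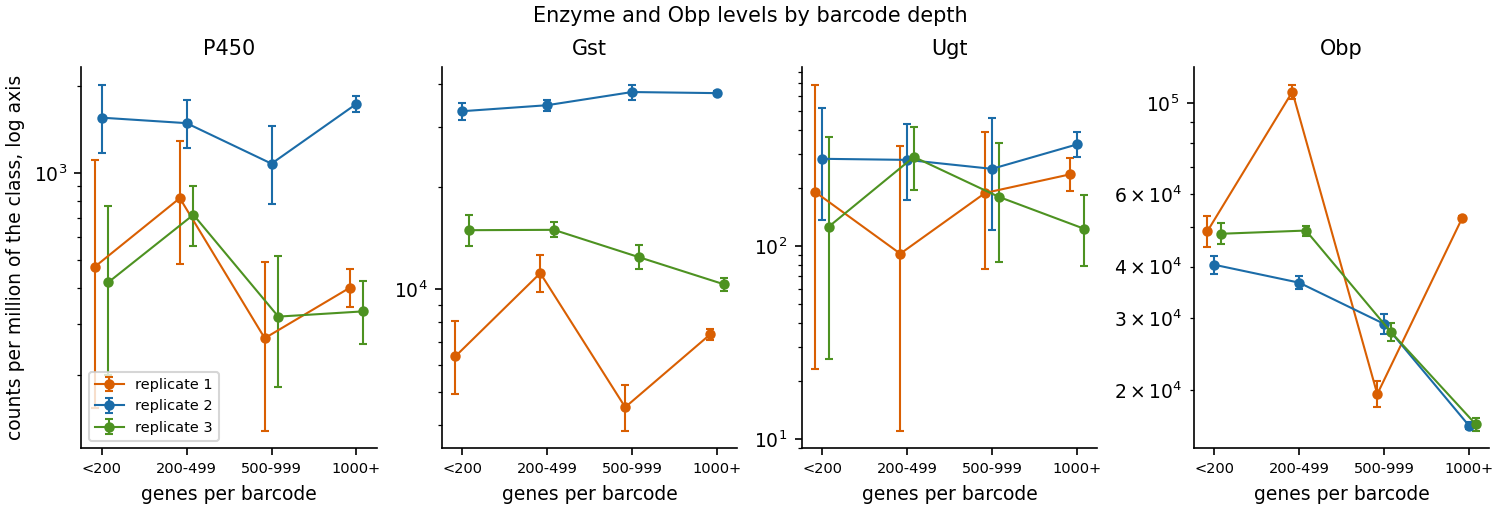
CPM of P450, Gst, Ugt and Obp genes in barcodes grouped by their number of genes, low to high, on log axes, with exact 95% intervals for counting error only. In replicate 2 Gst stayed between 33264 and 37859 CPM over the classes while Obp was lower at each greater depth.

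To relate the enzymes to Obp, each library's barcodes were divided at the median Obp share into Obp-rich and Obp-poor, 30 and 31, 107 and 107, and 115 and 116 barcodes in replicates 1, 2 and 3. Counts other than Obp were summed per class. Gst was 14367, 35950 and 16105 CPM in Obp-rich barcodes, against 4766, 38216 and 11521 CPM in Obp-poor ones. Cyp was 1069, 1526 and 880 CPM in Obp-rich barcodes, against 148, 1720 and 365 CPM in Obp-poor ones. Ugt was 144, 243 and 288 CPM in Obp-rich barcodes, against 280, 340 and 162 CPM in Obp-poor ones. In these sums Gst and Cyp were thus higher in Obp-rich barcodes of replicates 1 and 3 but not of replicate 2, and Ugt only in replicate 3. Mean log2 ratios were 0.66 ± 0.85 for Gst, 1.28 ± 1.47 for Cyp and −0.20 ± 0.88 for Ugt (SD, n = 3). The exact two-sided sign-flip permutation over 3 libraries, which cannot go below 0.25, gave p of 0.5, 0.5 and 0.75, and 0.75 for each after adjustment over the 6 ratios tested. Without replicate 1 the mean was 0.20 for Gst, 0.54 for Cyp and 0.16 for Ugt. Taken as a mean over barcodes, the log2 ratios of replicates 1, 2 and 3 were 1.13, 0.044 and 0.086 for Gst. They were 2.35, −0.12 and 0.69 for Cyp, and −0.69, −0.18 and 0.015 for Ugt. In sums without the deepest barcodes and those near them the mean ratio was −0.024 for Gst, 0.90 for Cyp and −0.59 for Ugt. Cyp was then higher in Obp-rich barcodes of each library (log2 ratios 1.78, 0.38 and 0.55), from 34, 92 and 43 counts against 7, 340 and 39. Ugt was lower in each (−1.27, −0.11 and −0.38), in replicate 1 from 1 against 2 counts. The exact permutation gave its lowest possible p, 0.25 before adjustment, for Cyp and for Ugt, as any 3 ratios of the same sign do. The Cyp ratio of replicate 2 was −0.17 in the main sums and −0.095 in barcodes with at least 500 genes. With the class limit at the upper quartile it was 0.0095.

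**Figure D5:**
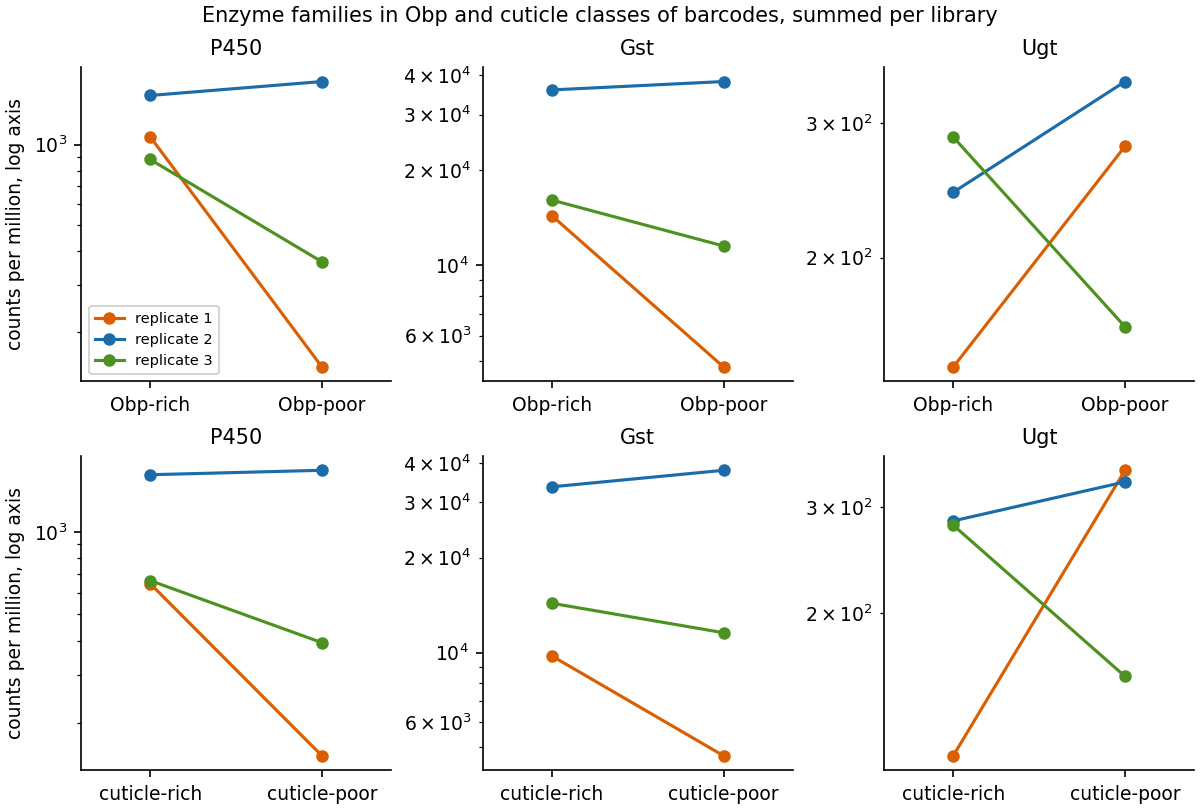
Summed CPM of P450, Gst and Ugt genes in Obp-rich and Obp-poor barcodes (upper row) and in cuticle-rich and cuticle-poor barcodes (lower row), on log axes, with 1 line per library. Lines of replicates 1 and 3 lie higher on the rich side for P450 and Gst, and that of replicate 2 does not.

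No member passed the test of single genes. With edgeR's quasi-likelihood test on the class sums and library as a block, 8 of 1902 genes tested were called at an adjusted p of 0.05, all higher in Obp-rich barcodes (0.421%). Of 23 members tested none was called, 1 had an unadjusted p under 0.05 (4.05% of all genes did, 2.84% in the higher direction), and DESeq2 called no gene and had the same number of members unadjusted. The median log2 fold change over these 23 was 0.43, with 18 positive, against −0.10 over all genes, with 857 of 1902 positive. This shift was smaller without replicate 1, with a members' median of 0.049 (14 of 28 positive), against −0.18 over all genes (952 of 2433). Without replicate 3 the members' median was −0.094 (15 of 35), against −0.26 over all genes (1154 of 2900). It did not hold without the deepest barcodes, with 0.0049 (5 of 9), against 0.064 over all genes (391 of 707). The member nearest to a call was GstD8, with 466, 8261 and 2301 CPM in Obp-rich barcodes, against 6.15, 9545 and 1314 CPM in Obp-poor ones. It was higher in Obp-rich barcodes of 2 of 3 libraries, and the classes overlapped across libraries. Its log2 fold change was 1.46 ± 0.40 (SE), with an edgeR adjusted p of 0.058. All SE given for edgeR are approximate, taken as the fold change over the square root of the test's F statistic. For GstD8 DESeq2 gave 1.69 ± 0.75 (SE, DESeq2 adjusted p 0.821). Only without replicate 3 was GstD8 called (log2 2.34 ± 0.60, edgeR adjusted p 0.036), where 0.276% of all genes were. Without replicate 1 its log2 fold change was 0.16. The number of genes called was 15 without replicate 1 and 0 without replicate 2.

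GstD7 showed how far replicate 1 set such values: it had 4350, 16.2 and 67.7 CPM in Obp-rich barcodes, against 317, 44.9 and 68.6 CPM in Obp-poor ones. Its log2 fold change was 1.24 ± 0.70 (edgeR adjusted p 0.948), and −0.63 without replicate 1. GstD1 had 5727, 9657 and 8763 CPM in Obp-rich barcodes, against 2554, 10267 and 7228 CPM in Obp-poor ones, a log2 fold change of 0.41 ± 0.28 (edgeR adjusted p 0.948), and −0.022 without replicate 1. Obp-rich barcodes were shallower, with medians of 1383.5, 437 and 462 counts, against 5948, 626 and 584.5 in Obp-poor ones. In replicate 1 they had 5721 CPM of epidermis markers, with all 7 counted, against 882 CPM, with 6 of 7 counted. Trachea markers, a list that shares Gasp with the epidermis list, were there at 1562 CPM in Obp-rich barcodes, with 2 of 5 counted, against 49.2 CPM in Obp-poor ones, with 3 of 5 counted. Nearly all of the 244 trachea counts of replicate 1 were Gasp. In the cuticle classes below, where Gasp is left out, 6 and 1 trachea counts remained. The trachea genes trh and btl had no count in replicate 1. Neuron markers were at 247, 5242 and 6784 CPM in Obp-rich barcodes, against 55.3, 6379 and 13954 CPM in Obp-poor ones, with 7 to 10 of 10 counted in each sum. Glia markers were at 438, 2986 and 998 CPM in Obp-rich barcodes, with 3 or 4 of 9 counted, against 968, 3904 and 383 CPM in Obp-poor ones, with 6 or 7 of 9 counted. The class limit was also set within depth classes, a setting added after seeing the data. Gst log2 ratios were then 1.31, −0.071 and 0.071 in replicates 1, 2 and 3, against 1.59, −0.088 and 0.48 in the main sums. Cyp was at 2.31, −0.11 and 0.74, and Ugt at −1.35, −0.0055 and −0.17. Median depth still differed, with 1911, 495 and 504 counts in Obp-rich barcodes, against 3569, 547.5 and 521. The part of depth and of these markers in the enzyme ratios was not tested beyond this.

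Cuticle genes, which epidermis and the cells that build sensillum hairs express, gave ratios of the same signs. They took 1132, 1544 and 9814 CPM in replicates 1, 2 and 3. Gst was 9752, 33585 and 14335 CPM in cuticle-rich barcodes, against 4699, 37895 and 11555 CPM in cuticle-poor ones. Cyp was 647, 1617 and 664 CPM in cuticle-rich barcodes, against 152, 1679 and 394 CPM in cuticle-poor ones. Ugt was 115, 285 and 280 CPM in cuticle-rich barcodes, against 346, 331 and 157 CPM in cuticle-poor ones. In these sums each library took the same side as for Obp. Mean log2 ratios were 0.40 ± 0.62, 0.90 ± 1.05 and −0.30 ± 1.16 (SD, n = 3), with exact permutation p of 0.5, 0.5 and 0.75 and 0.75 for each after adjustment. Without replicate 1 the mean was 0.068 for Gst, 0.34 for Cyp and 0.30 for Ugt. As a mean over barcodes it was 0.084 for Gst and 0.20 for Cyp, with replicate 3 at −0.046 and −0.17. Without the deepest barcodes and those near them the mean ratio was −0.15 for Gst, 0.43 for Cyp and −0.28 for Ugt.

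The cuticle and Obp divisions overlapped. Obp genes took 93822, 34143 and 48949 CPM in cuticle-rich barcodes, against 7344, 17246 and 22626 CPM in cuticle-poor ones, so the contrasts are not independent. Gasp, 1 of the 7 epidermis markers, is also a cuticle gene and was left out of these sums. In replicate 1 the other epidermis markers were at 2532 CPM in cuticle-rich barcodes, with 5 counted, against 958 CPM in cuticle-poor ones, with 6 counted. These values therefore cannot be set beside those of the Obp classes. Neuron markers were at 162, 5558 and 6519 CPM in cuticle-rich barcodes, against 50.6, 6250 and 13935 CPM in cuticle-poor ones. Median depth was 3480, 475 and 462 counts in cuticle-rich barcodes, against 1009, 547 and 584.5 in cuticle-poor ones, so in replicate 1 the rich class was the deeper here. With the class limit within depth classes the Gst log2 ratios were 1.08, 0.030 and 0.016, against 1.05, −0.17 and 0.31 in the main sums. Cyp was then at 1.94, −0.35 and 0.063, and Ugt at −1.54, 0.083 and −0.069. Median depth still differed, with 4069.5, 550.5 and 476 counts in cuticle-rich barcodes, against 1621, 510.5 and 563. The part of depth and markers in these ratios was not tested beyond this. By edgeR, 7 of 1959 genes were called, all higher in cuticle-rich barcodes (0.357%), 13 without replicate 1, 3 without replicate 2 and 5 without replicate 3 (0.168%). None of 21 members tested was called, 1 had an unadjusted p under 0.05 (4.29% of all genes did, 2.76% in the higher direction), and DESeq2 called 8 genes with no member among them and none unadjusted. The median over these members was 0.22, with 12 of 21 positive, against −0.09 over all genes, with 897 positive. It turned to −0.17 without replicate 1 (12 of 27 positive), against −0.22 over all genes (972 of 2542). With the class limit at the upper quartile it was −0.23 (8 of 21), against −0.35 over all genes (650 of 1845). Without the deepest barcodes it was −0.17 (2 of 9), below the 0.049 over all genes (432 of 762). GstD8 had a log2 fold change of 0.80 ± 0.36 (edgeR adjusted p 0.935), from 239, 7949 and 2035 CPM in cuticle-rich barcodes, against 33.7, 9454 and 1319 CPM in cuticle-poor ones. Cyp4p1 was at 373 and 68.3 CPM in cuticle-rich barcodes of replicates 1 and 2, against 42.2 and 28.3 CPM in cuticle-poor ones, a log2 fold change of 2.17 ± 1.30 (edgeR adjusted p 0.935).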

How the data were processed

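Counts per gene and barcode were deposited by the authors as whole numbers without normalization, as the file headers and values show. STAR 2.7.0 and Seurat 3.1.2 are named in the submitters' processing notes. The genome build, annotation, strand setting, and any collapsing of copies to molecules or correction of barcodes are not given in the sources used here, so intervals and limits cover counting error only, and no coordinates are printed. cDNA had 21 amplification cycles, per the labels' protocols.

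Members and lists were chosen with earlier results of these data known. Barcodes with at least 200 genes were kept (506 of 1369), with no doublet caller run and none left out. Library totals before this were 508018, 689416 and 369432 counts. CPM carry exact 95% intervals (scipy 1.17.1), and a count of 0 is limited at 3 counts. All 94 symbols were matched to RefSeq names (83 current, 11 synonyms).

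Barcodes were divided at each library's median share of class genes, with at least 1 such count asked of the rich class. Class genes were left out, counts were summed per class and library, and edgeR 4.0.16 (TMM, filterByExpr, library as block, adjusted over all genes, called at 0.05) was tested on simulated data and run, with DESeq2 1.42.0 as an alternative. The library pairs the sums because both come from the same suspension. Family log2 ratios used a pseudocount of 10 CPM and an exact sign-flip permutation. Marker lists served as descriptions. Named genes were the 6 highest of each family by mean CPM, those called or gathered, and a fixed list of 11; others named were chosen after their values were seen.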

Additional observations from a re-analysis of the deposited data

Results flagged for a closer look

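Barcodes with under 200 genes entered no comparison, yet held member counts above the limit that a count of 0 allows. They held 67, 1176 and 355 Gst counts in replicates 1, 2 and 3, and 5, 55 and 10 Cyp counts. Ugt passed that limit in replicate 2 only, with 10 counts. In CPM of these barcodes Gst was 6365, 33264 and 14909, so the libraries kept the order they had among deeper barcodes. GstD1 took 86.8%, 29.6% and 58.1% of the counts of GstD1, GstD2, GstD8 and GstE4 there. No control sample was measured, and the source of these counts was not tested.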

How the results depend on the processing

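Of the alternatives run, 181 values stayed the same by the rule for their kind, 20 moved, 12 reversed and 1 passed the threshold. A count stayed the same if close in ratio to the main count, and a family ratio if its sign held. A single gene had to keep its sign and side of the threshold, and a family mean to stay within 1 SD. For Gst and Cyp that SD was about as large as the mean, so the rule was loose. Genes called for Obp (8) were 4 with DESeq2 size factors, 0 with DESeq2, 3 without the filter, 3 with the class limit at the upper quartile, and 0 without the deepest barcodes and those near them, with the limit within depth classes (added after seeing the data), or with no replicate block. Genes called for cuticle (7) were 3 without the filter, 3 at the upper quartile, 0 without the deepest barcodes and 0 with no replicate block. Leaving out each library gave 0 to 15 and 3 to 13, and 0 to 1 member (GstD8) for Obp. The Gst ratios were −0.024 (Obp) and −0.15 (cuticle) without the deepest barcodes, and the Ugt ratios ranged from −0.69 to 0.16 and from −0.86 to 0.30 over left-out libraries. GstD1 was −0.088 and −0.19 without the filter, with ranges of −0.022 to 0.59 and −0.10 to 0.35 over left-out libraries. GstD7 ranged from −0.63 to 2.03 for Obp and was −0.29 for cuticle without the deepest barcodes. GstD8 for cuticle was −0.040 with no replicate block and −0.56 at the upper quartile. The median over tested members was −0.22 (Obp) and −0.040 (cuticle) without the filter, against −0.91 and −0.53 over all genes. GstD8 for Obp ranged from 0.16 to 2.90 over left-out libraries. Gathered pairs (38) were 126 at 1 times the barcode's share (7.40%, against 6.64% of all pairs), 8 at 4 times (0.47%, against 0.45%), and 19 to 36 over left-out libraries. The cause of these shifts was not tested. Most Cyp and Ugt genes have too few counts for a difference between barcodes to be detectable.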

Other observations

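Among the partner genes of redox balance, Trx-2, Trxr-1, Sod and Sod2 were counted in every library, while catalase (Cat) had 9, 38 and 0 counts. Trx-2, a thioredoxin that keeps protein thiols reduced, had 581, 1774 and 1082 CPM in replicates 1, 2 and 3. Sod, which removes superoxide, had 613, 1269 and 535 CPM. Both were highest in replicate 2, as the summed Gst was. Of 10 partner genes tested, edgeR called none in either contrast. Sod had the most even direction: it was at 1425, 1607 and 947 CPM in Obp-rich barcodes, against 298, 1261 and 466 CPM in Obp-poor ones, higher in 3 of 3 libraries (log2 fold change 1.17 ± 0.53 SE, edgeR adjusted p 0.948). Mgstl was also higher in Obp-rich barcodes of each library, with 562, 195 and 880 CPM, against 76.8, 179 and 321 CPM (log2 1.45 ± 0.79, edgeR adjusted p 0.948). Sod and Mgstl were singled out after their values were seen.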
